A study of Mus musculus with 12 samples.

Results

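The genes described here encode serum response factor and the transcription factors that act with it or resemble it: Srf itself, its coactivators Mrtfa and Mrtfb, the MEF2 factors Mef2a, Mef2c and Mef2d, and the ternary complex factors Elk1, Elk3 and Elk4. They were chosen by name, as the probe sets that carry 1 distinct gene symbol equal to a member or to its older symbol (Mkl1 for Mrtfa, Mkl2 for Mrtfb). All 9 were found among 30142 named genes, each with 1 probe set, and all 9 entered the test of 24265 genes. Mef2b, the remaining MEF2 gene, shares its probe set with a second symbol and has no value here.

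The cells were mouse megakaryocytes, the large bone marrow cells that shed platelets, grown from hematopoietic stem cells of male C57BL/6 marrow. Cultures had thrombopoietin at 100 ng per ml for 3 days and a night in medium with 10% charcoal-stripped serum, and day 4 cells were purified on an albumin gradient. Each of 6 cultures was then divided: one portion received 100 nM dexamethasone, a synthetic glucocorticoid, and the other portion its vehicle, both for 6 h, which gave 6 arrays per treatment. Cultures 1 to 6 in the text are the replicate numbers of the labels. The labels also carry culture numbers of their own, which in replicate order are 1, 4, 5, 6, 7 and 8. Cultures 2 and 3 in the text are therefore 4 and 5 by that numbering. The sources used here do not say whether the cultures were started from separate mice.

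SRF binds a short DNA element, the CArG box, and is switched on through partners. Members of the MRTF family are held in the cytoplasm by monomeric actin and enter the nucleus when actin filaments grow under RhoA signalling, which turns on genes of the cytoskeleton. The ternary complex factors are ETS proteins that MAP kinases phosphorylate, and with SRF they turn on immediate early genes such as Fos and Egr1. MEF2 proteins share the MADS DNA-binding fold with SRF, bind an A and T rich site of their own, and are kept silent by class II histone deacetylases until calcium-dependent kinases or MAP kinases release them. In mouse megakaryocytes, loss of Srf or of the MRTF proteins disturbs maturation and platelet formation, and loss of Mef2c lowers platelet output.

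After 6 h of dexamethasone, Mef2c and Srf were lower, Elk1 was slightly lower and Mef2a slightly higher, while Mrtfa, Mrtfb, Mef2d, Elk3 and Elk4 did not pass the threshold. The fall left Mef2c at 66.0% and Srf at 70.4% of the vehicle signal, on the deposited log2 scale turned back into folds. The call was an adjusted p under 0.05 from limma, fitted over all 24265 genes with culture as a block. Of the 9 genes 3 fell and 1 rose, or 44.4%, against 12.0% of all tested genes called in either direction (4.56% lower, 7.39% higher). Rises made up 61.9% of all calls on the deposited values, 70.3% when each array was centred on its median and 44.9% when arrays were quantile normalized. All 9 lay above the negative control median, the middle signal of the 5222 control probe sets of an array, on each of the 12 arrays. Only 3 of the 9, Mef2a, Mef2c and Elk4, were above the 95th percentile of those controls (9.98 to 10.39) on all 12 arrays. Srf, Mrtfa, Mrtfb, Mef2d, Elk1 and Elk3 were above that percentile on no array. Of the 13050 tested genes above the control median on at least 6 arrays 19.5% were called, 12.3% higher and 7.17% lower. The share was 26.3% when the fit was made on these genes alone. The median change of the 9 genes was -0.16, against -0.01 for all tested genes (log2, dexamethasone minus vehicle), and their median absolute change was 0.16 against 0.08. The count of the 9 depended on the setting. With array centring 0 were called higher and 3 lower, where 10.1% of all tested genes were called, 7.08% higher and 2.99% lower. With quantile normalization 0 were called higher and 6 lower, against 13.0% of all, 5.84% higher and 7.16% lower. Without cultures 2 and 3 the counts were 0 and 2, against 5.23% of all, 3.01% higher and 2.22% lower.

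**Figure D1:**
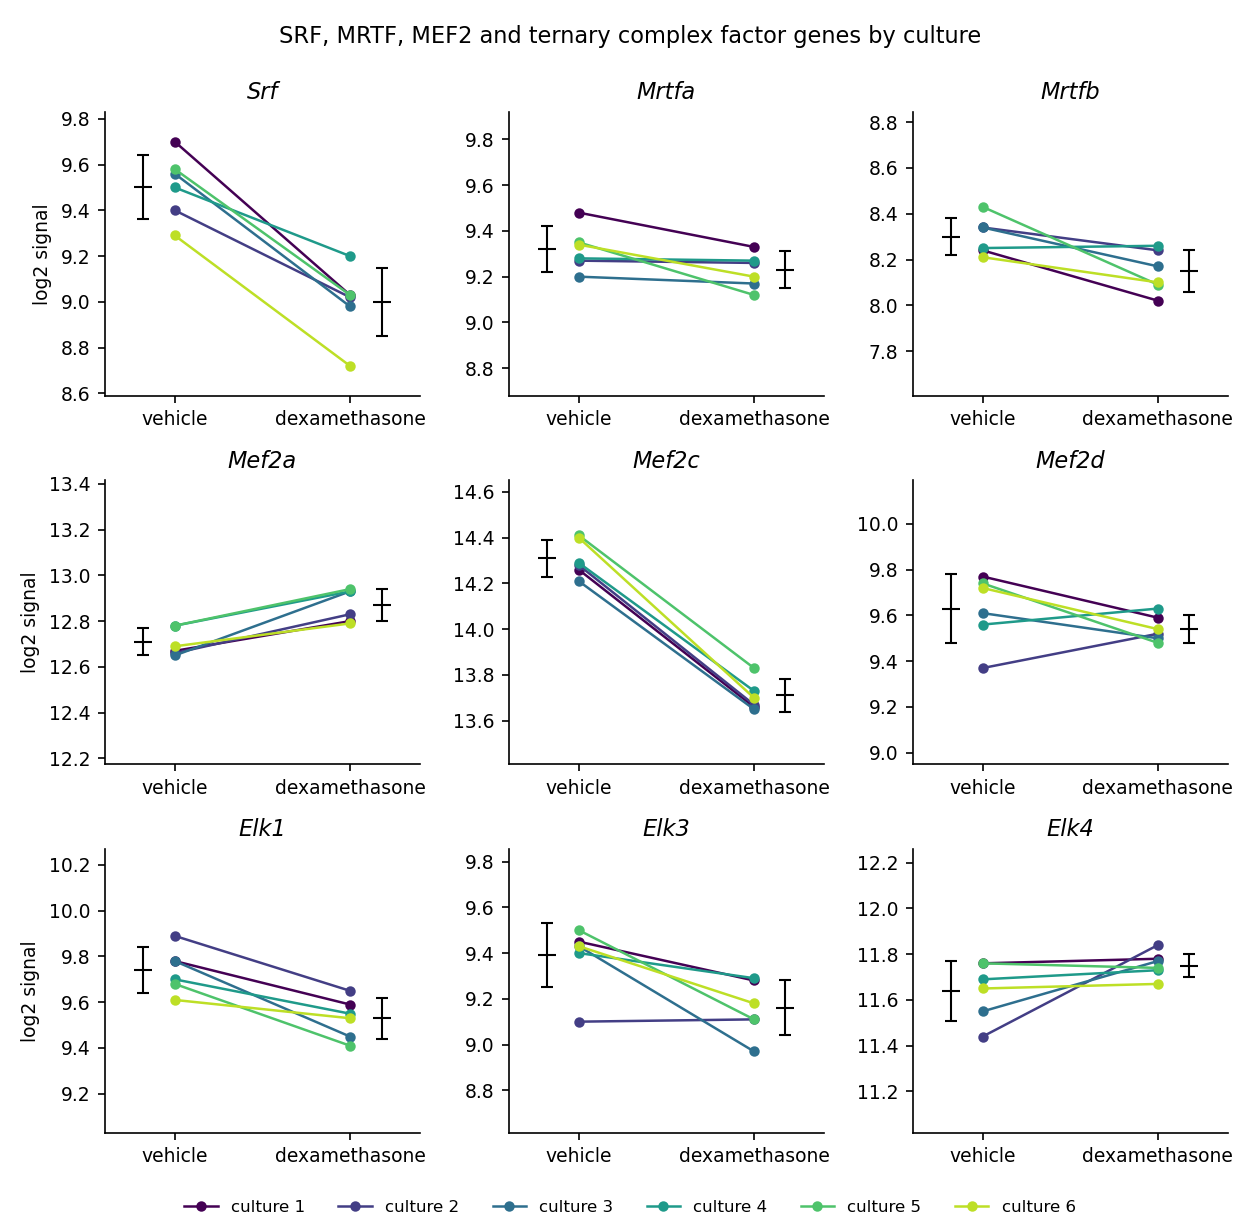
Log2 signal of the 9 genes on the 12 arrays, with 1 line per culture from vehicle to dexamethasone and the mean ± SD (n = 6) beside each group; every panel spans the same height. Mef2c and Srf descend in all 6 cultures without overlap between the groups, Mef2a climbs slightly in all 6, and the lines of Mef2d, Elk3 and Elk4 do not all run one way.

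The promoter of Srf is shown because it carries matches to the CArG box, the element that SRF itself binds. Whether SRF acts on its own gene in these cells was not tested. The sequence is the RefSeq window from 250 bases before to 50 bases after the annotated start, on GRCm38.p6 at chr17:46556113-46556412, minus strand, 5′ to 3′, and the capitals mark matches to the CArG box.
Srf: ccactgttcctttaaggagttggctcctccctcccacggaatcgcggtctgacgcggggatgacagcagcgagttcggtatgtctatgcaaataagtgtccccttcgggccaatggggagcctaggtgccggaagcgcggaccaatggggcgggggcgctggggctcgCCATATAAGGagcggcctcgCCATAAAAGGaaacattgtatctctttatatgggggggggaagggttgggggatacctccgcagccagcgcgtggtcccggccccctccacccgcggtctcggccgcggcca

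The matches begin 82 and 62 bases before the start, and a match to CCGGAA, the core that ETS factors such as the ternary complex factors bind, begins 122 bases before it. Both strands were searched in 16 windows, which cover all 9 genes in the RefSeq table, and matches of different motifs did not overlap. Srf was the only one of the 9 with a CArG box, an element found in 1.63% of 32851 promoter windows. CCGGAA was present in 5 of the 16 windows (of Srf, Mrtfb, Mef2a and Elk4), against 14.9% of all windows. Of these, the Mrtfb windows overlap and hold the same site, which is counted in each. A MEF2 site was in 2 windows (of Mef2a and Mrtfb), against 3.19%. Counted by gene, 1.76% of tested genes with a window held a CArG box, 23.2% CCGGAA and 2.78% a MEF2 site. A palindrome of the glucocorticoid receptor, searched only in the strict form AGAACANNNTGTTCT, was in none of the 16 windows and in 3 of all windows. A form this rare (0.00913% of windows) would hardly occur in 16, so its absence does not show that receptor sites are lacking. The MEF2 match in Mef2a, a gene whose product binds MEF2 sites, spans the annotated start. Both MEF2 matches are printed with 10 flanking bases, on GRCm38.p6, with the MEF2 site in capitals.
Mef2a: ggcctgactcCTAAAAATAGccccggtgtg
Mrtfb: gctagagattTTATTTTTAActgcttgact

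The sites lie in the windows chr7:67372809-67373108 (minus strand) and chr16:13358171-13358470 (plus strand). A match is a description of the letters in the window, and no binding was measured in these cells.

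Srf, which encodes the factor at the centre of the group, had vehicle signals of 9.29 at the lowest, 9.53 at the median and 9.70 at the highest, and dexamethasone signals of 8.72, 9.02 and 9.20. Every dexamethasone array lay below every vehicle array, a separation seen in 2.63% of all tested genes in that direction. The SD was 0.14 in vehicle and 0.15 in dexamethasone (log2, n = 6). The change was -0.51 (SE 0.06, limma adjusted p = 0.000643), and within cultures it ran from -0.67 in culture 1 to -0.30 in culture 4. Its absolute change ranked 533 of 24265. An exact sign-flip permutation test of the 6 within-culture changes, two-sided, gave p = 0.0312, the smallest that 6 cultures allow. Mef2c, Mef2a, Elk1 and the uncalled Mrtfa had the same exact p, since each moved one way in all 6 cultures.

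The MRTF genes, whose products carry the actin signal to SRF, stayed within smaller bounds. Mrtfa signals ran from 9.20 through a median of 9.31 to 9.48 in vehicle and from 9.12 through 9.23 to 9.33 in dexamethasone, so the ranges overlapped. Its change was -0.09 (95% interval -0.20 to 0.01, limma adjusted p = 0.239), although it was lower in 6 of 6 cultures, by as little as 0.01 in cultures 2 and 4 and with a change of -0.23 in culture 5. Mrtfb signals ran from 8.21 through 8.30 to 8.43 in vehicle and from 8.02 through 8.13 to 8.26 in dexamethasone. Its change was -0.16 (-0.28 to -0.04, adjusted p = 0.0955), lower in 5 of 6 cultures. The intervals are those of single genes and are not adjusted for the number of genes. Both changes had an adjusted p under 0.05 after quantile normalization, with -0.15 (0.0364) for Mrtfa and -0.21 (0.0359) for Mrtfb.

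Mef2c, the MEF2 factor known from heart, bone and lymphoid development and from platelet formation in mice, was bright and moved most. Vehicle signals were 14.21 at the lowest, 14.29 at the median and 14.41 at the highest, and dexamethasone signals were 13.65, 13.68 and 13.83. The groups were far apart, with the highest dexamethasone array below the lowest vehicle array. The means were 14.31 ± 0.08 and 13.71 ± 0.07 (log2, SD, n = 6), and the change was -0.60 (SE 0.04, limma adjusted p = 3.83e-05). The 6 cultures differed little, from -0.70 in culture 6 to -0.55 in culture 3, an SD of 0.05, where Srf had an SD of 0.14. Fewer Mef2c-bearing cells and less Mef2c RNA per cell cannot be told apart in RNA of whole cultures.

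Mef2a, a widely expressed member, went the other way. Its signals were 12.65, 12.68 and 12.78 (lowest, median, highest) in vehicle and 12.79, 12.88 and 12.94 in dexamethasone, so the groups touched without overlapping. The change was 0.16 (SE 0.04, limma adjusted p = 0.0407), higher in 6 of 6 cultures, by 0.09 to 0.27. This call was the least secure of the 4: it was lost when any 1 culture was left out, with adjusted p from 0.0642 to 0.122 and changes from 0.14 to 0.18, and under quantile normalization (0.13, adjusted p = 0.0679). Mef2d, also widely expressed, had signals of 9.37, 9.66 and 9.77 in vehicle and 9.48, 9.53 and 9.63 in dexamethasone. Its change was -0.08 (-0.23 to 0.06, adjusted p = 0.425), lower in 4 cultures and higher in cultures 2 and 4.

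The MEF2 genes therefore did not share a response, and the differences between their changes were tested directly. The change of Mef2a exceeded that of Mef2c by 0.76 ± 0.05 (SD, n = 6), within 0.71 to 0.83 in every culture. It exceeded that of Mef2d by 0.25 ± 0.16, and the change of Mef2c lay below that of Mef2d by a mean difference of -0.52 ± 0.16. Each of these had p = 0.0312 in an exact sign-flip permutation test, and 0.0437 after Benjamini-Hochberg adjustment over the 7 pairs compared within families. With 1 culture left out the same test cannot reach the threshold, and all 3 had an adjusted p of 0.0875, with differences of 0.75 to 0.77, 0.21 to 0.29 and -0.55 to -0.47.

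**Figure D2:**
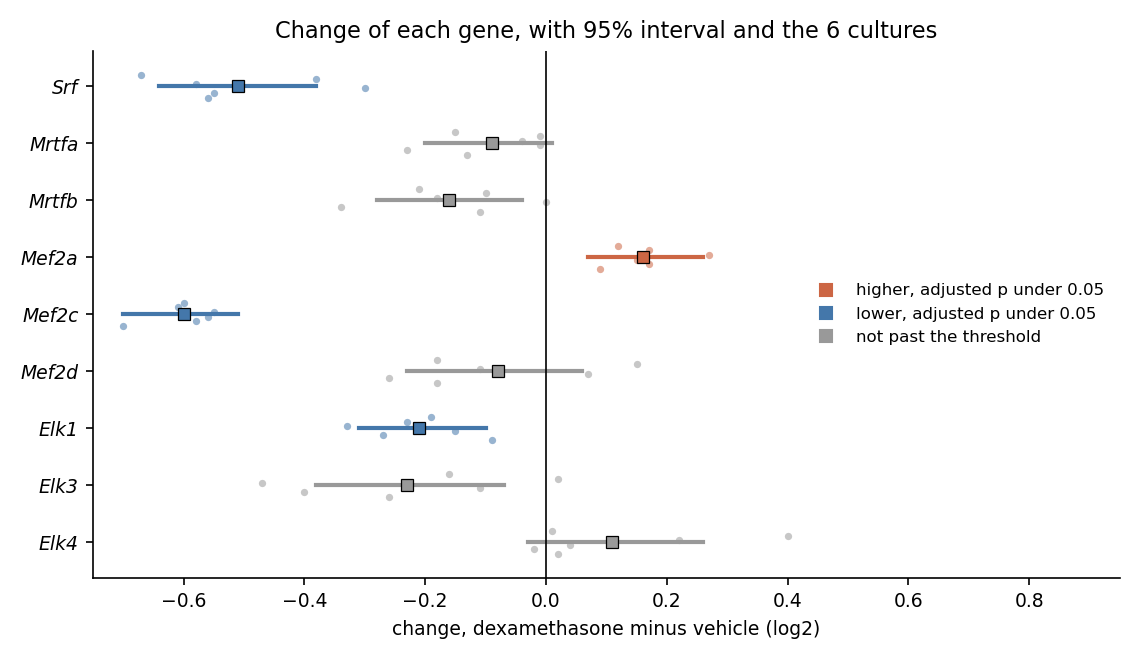
Change of each gene (log2, dexamethasone minus vehicle; squares, limma estimate; lines, 95% interval; small points, the 6 cultures). Mef2c at -0.60 and Srf at -0.51 stand away from 0 in every culture, Mef2a lies at 0.16, and the intervals of Mrtfa, Mef2d and Elk4 include 0.

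Among the ternary complex factors, which bring MAP kinase signals to SRF, Elk1 fell slightly. Its signals were 9.61, 9.74 and 9.89 (lowest, median, highest) in vehicle and 9.41, 9.54 and 9.65 in dexamethasone, and the groups overlapped. The change was -0.21 (SE 0.05, limma adjusted p = 0.0217), lower in 6 of 6 cultures by changes of -0.33 to -0.09. The call was lost without culture 2, 3 or 5, with adjusted p of 0.0581, 0.0707 and 0.0621. Elk3, also known as Net and able to repress as well as activate, had signals of 9.10, 9.43 and 9.50 in vehicle and 8.97, 9.15 and 9.29 in dexamethasone. Its change of -0.23 (-0.38 to -0.07, adjusted p = 0.0637) was the size of that of Elk1, but the cultures spread more widely, from -0.47 in culture 3 to 0.02 in culture 2. Without culture 2 the change was -0.28 with an adjusted p of 0.0421. Elk3 passed the threshold under 5 of 18 other settings and Elk1 under 13 of 18.

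Elk4, also called SAP1, was higher in 5 of 6 cultures without passing. Signals were 11.44, 11.67 and 11.76 in vehicle and 11.67, 11.75 and 11.84 in dexamethasone, and the change was 0.11 (-0.03 to 0.26, adjusted p = 0.298). Cultures 2 and 3 supplied most of it, with changes of 0.40 and 0.22 against -0.02 to 0.04 in the other 4, and without those 2 cultures it was 0.01. The vehicle arrays of cultures 2 and 3 had the highest lower quartiles of signal, 4.90 each, and how far this bears on Elk4 was not tested. The change of Elk1 lay below that of Elk4 by a mean difference of -0.32 ± 0.21 and that of Elk3 by -0.34 ± 0.20 (SD, n = 6), each in 6 of 6 cultures with an adjusted p of 0.0437 (exact sign-flip permutation test). Without one culture, these 2 differences had an adjusted p of 0.0875 and ran from -0.36 to -0.26 and from -0.38 to -0.27. Elk1 and Elk3 differed by 0.02 ± 0.16, from -0.25 to 0.17 (exact sign-flip permutation test, adjusted p = 0.781), and Mrtfa and Mrtfb by 0.06 ± 0.07, from -0.02 to 0.14 (adjusted p = 0.146).

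In all, Srf, Mef2a and Mef2c were the genes whose arrays did not overlap between treatments, 3 of 9 against 6.73% of all tested genes (4.1% with dexamethasone higher). The calls of Srf and Mef2c held under all 18 other settings tried, with adjusted p up to 0.012 and 0.00227. Elk1 and Mef2a were the called genes nearest the threshold, and Elk3 and Mrtfb the nearest beyond it.

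**Figure D3:**
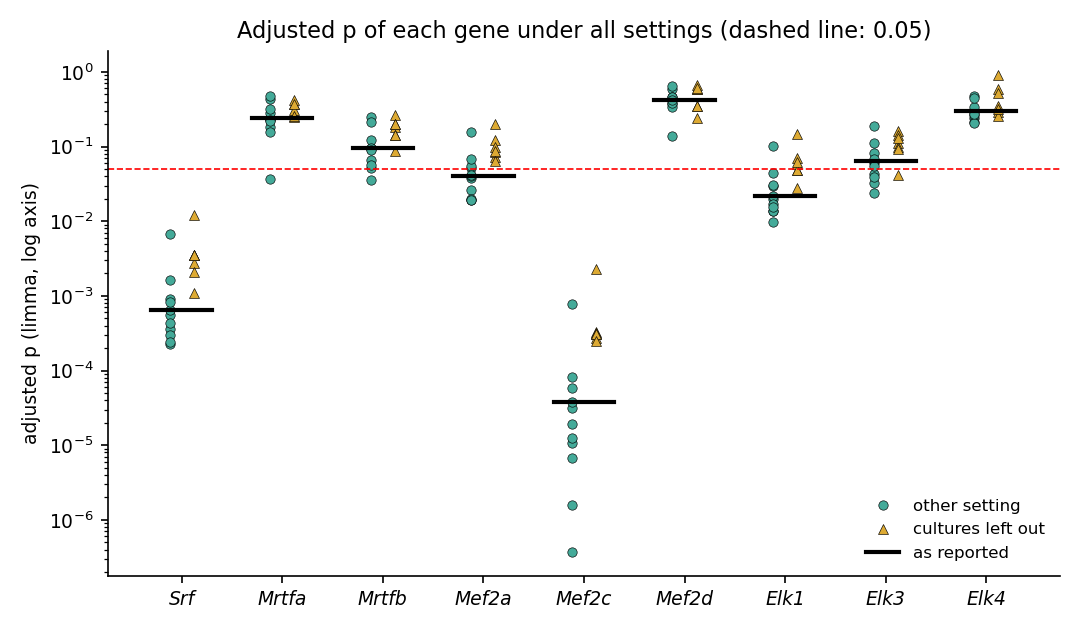
Limma adjusted p of the 9 genes (log axis) as reported (bars), under other settings with all cultures (circles) and with 1 or 2 cultures left out (triangles); the dashed line is 0.05. Srf and Mef2c stay below the line throughout, Mef2d and Elk4 stay above it, and the other 5 genes cross it.

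For each called gene the 3 genes with the most similar signal over the 12 arrays were looked up among 12985 tested genes with a mean above the negative controls. Srf was followed most closely by Iars, the cytosolic isoleucyl tRNA synthetase, with Pearson r = 0.988 and Spearman rho = 0.972 over 12 arrays. After the mean of each treatment was removed the r was still 0.953. Exoc2, a subunit of the exocyst, and Azin1, the antizyme inhibitor, came next with r of 0.974 and 0.963. Iars, Exoc2 and Azin1 had changes of -0.37, -0.23 and -0.30. Mef2c was followed by Nucks1, Stap1 and the endoplasmic reticulum chaperone Hsp90b1 (r of 0.986, 0.976 and 0.975), and r within treatments was lower, at 0.748, 0.552 and 0.707. Mef2a was followed by Fam169a, Ubxn7 and Acad8 (0.963, 0.952 and 0.949), and Elk1 by Otulin, Gm14253 and the actin-binding caldesmon gene Cald1 (0.918, 0.905 and 0.901). The arrays share cultures and the treatment step, so these values describe likeness and carry no test.

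The genes above and below these factors were read from 7 lists, chosen from textbook knowledge with earlier results of the same data known. Of 106 distinct genes tested, 17 rose, 11 fell and 78 did not pass. The 28 calls all lay among the 78 genes above the negative control median, 35.9% of them, against 19.5% of all such genes. The median change was 0.03 for those 78 and 0.03 for all genes above the median. None of the 28 turned its direction under 18 other settings, and 10 passed under all 18: Rhob, Klf2, Map2k3, Rcan1, Egr1, Ccn1, Limk2, Mark2, Diaph3 and Tpm1. Quantile normalization turned the balance to 12 higher and 19 lower, the fit over all probe sets gave 8 higher and 3 lower, and leaving out cultures 2 and 3 gave 7 higher and 6 lower.

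Cytoskeletal genes known as SRF and MRTF targets gave 2 rises and 5 falls among 25 tested, with a median change of -0.04. For comparison, 12.0% of all tested genes were called, 7.39% higher and 4.56% lower. Of those above the control median 19.5% were called, 12.3% higher and 7.17% lower. The number of falls in the cytoskeletal list was 9 with quantile normalization and 3 without the culture block. It was 2 in the fit over all probe sets, which left 1 rise. Ccn1, a secreted matrix protein, fell from 7.15 ± 0.17 to 6.62 ± 0.11 (change -0.54, SE 0.06, limma adjusted p = 0.000433), the tropomyosin gene Tpm1 fell by 0.30, and Thbs1, the platelet granule protein thrombospondin 1, fell by 0.26. The others lower were the tropomyosins Tpm2 and Tpm4, calls lost under 4 and 9 of 18 other settings. The myosin light chain Myl9 rose from 12.69 ± 0.17 to 13.12 ± 0.28 (0.44, adjusted p = 0.00325), in 6 of 6 cultures, and zyxin, Zyx, rose by 0.25. Actb and Vcl, named after their values were seen as well-known SRF targets, changed by -0.08 (adjusted p = 0.306) and -0.06 (0.406) without passing. The smooth muscle actin Acta2 was under the control median on every array.

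Immediate early genes known as targets of SRF with ternary complex factors gave 5 rises and 1 fall among 13 tested. This was 46.2% called, with 12.0% for all tested genes and 19.5% for those above the control median. The count rested on single cultures: 2 rises were left without culture 3, 4 or 6 and 3 without culture 2, and the fall was lost without culture 1, 4, 5 or 6. Quantile normalization left 2 rises and the fit over all probe sets 1. The zinc finger factor Egr1 rose from 6.95 ± 0.16 to 7.51 ± 0.06 (0.56, SE 0.07, limma adjusted p = 0.000867), with no overlap between the groups. Zfp36, which marks inflammatory mRNAs for decay, rose by 0.30, in 5 of 6 cultures (adjusted p = 0.0315, lost without any 1 of cultures 1, 2, 3, 4 and 6), and the survival gene Mcl1 rose by 0.28. Btg2 and Klf10 were the other rises, and Ier3 fell by 0.34, calls lost under 8, 12 and 7 of 18 other settings. Fos and Fosl1 were too dim to enter the test, and Fosb and Nr4a1 were under the control median on every array.

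CArG boxes of these target genes are shown beside their changes, since the boxes are what SRF would bind. Windows were at hand for 25 of the 30 genes of the cytoskeletal list and 10 of the 16 of the immediate early list. The rest were not searched. Among genes with a window, 7 of 25 and 2 of 10 held a CArG box, whereas 1.76% of all tested genes with a window did. Of these 9 genes 7 were tested, of which Myl9 and Zfp36 rose and Vcl, Cnn2, Fhl1, Fhl2 and Egr2 did not pass. The elements of Srf, Myl9, Zfp36, Vcl and Cnn2 are printed 5′ to 3′ in the direction of the gene with 10 flanking bases, from RefSeq on GRCm38.p6, and the CArG box is in capitals.
Srf distal: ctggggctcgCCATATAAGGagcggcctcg
Srf proximal: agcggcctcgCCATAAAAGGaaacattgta
Myl9: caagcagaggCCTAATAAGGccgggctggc
Zfp36: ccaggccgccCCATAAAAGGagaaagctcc
Vcl: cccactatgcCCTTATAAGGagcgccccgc
Cnn2: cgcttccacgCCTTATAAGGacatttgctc

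The 10 letters of the proximal Srf box and of the Zfp36 box are the same, and Srf had a change of -0.51 where Zfp36 had one of 0.30. The boxes of Vcl and Cnn2, also the same as each other, belong to genes with changes of -0.06 (adjusted p = 0.406) and 0.03 (adjusted p = 0.717). Over all tested genes with a CArG box in a window, 23 rose and 13 fell of 257, 14.0% called, against 13.3% of the 14582 tested genes with a window, which is near that background. Their median change was -0.009 against -0.016. The windows for Myl9 and Zfp36 are chr2:156775214-156775513 (plus strand) and chr7:28379179-28379478 (minus strand), and those for Vcl and Cnn2 are chr14:20929148-20929447 and chr10:79988350-79988649 (both plus strand).

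Genes known as MEF2 targets in muscle, endothelium, neurons or T cells were mostly silent in these cultures, with 12 of 18 under the control median on every array. Of 16 tested, 2 rose, none fell and 14 did not pass. Called were 12.5%, beside 12.0% of all tested genes and 19.5% of those above the control median. Most of the silent genes are among the 16 tested, while the 2 that rose were above that median on every array. Klf2, a factor of quiescent endothelium and lymphocytes, rose from 8.09 ± 0.43 to 9.57 ± 0.23 (log2, SD, n = 6), a change of 1.48 (SE 0.11, limma adjusted p = 5.53e-05) in 6 of 6 cultures. Rcan1, a feedback inhibitor of calcineurin, rose from 6.73 ± 0.08 to 7.51 ± 0.20 (0.77, adjusted p = 0.000653). Jun changed by 0.18 (adjusted p = 0.104). MEF2 sites stand in the windows of Klf2 and Jun, on GRCm38.p6 at chr8:72318812-72319111 (plus strand) and chr4:95052173-95052472 (minus strand), and are printed in capitals with 10 flanking bases to set the 2 genes beside Mef2a above.
Klf2: tataccgcggCTAAATTTAGgctgagcccg
Jun: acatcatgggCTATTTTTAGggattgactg

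Over all 405 tested genes with a MEF2 site in a window, 25 rose and 23 fell, 11.9% called, below the 13.3% of all tested genes with a window.

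**Figure D4:**
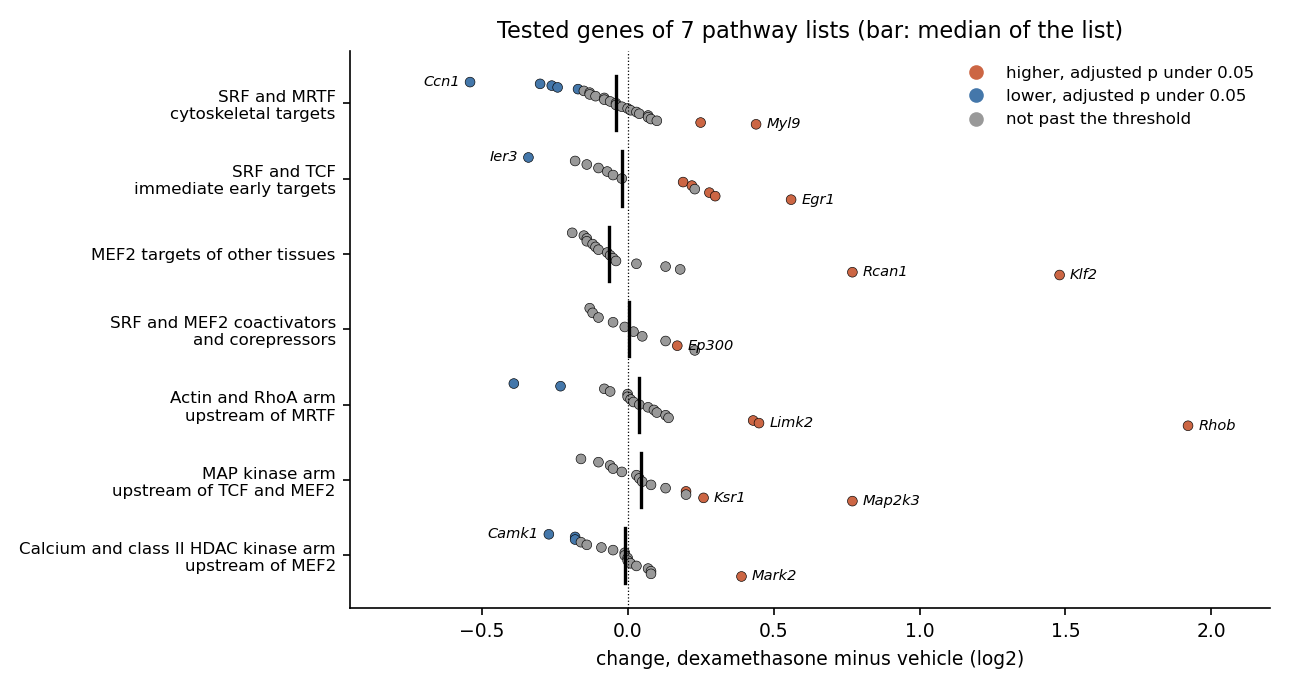
Change of each tested gene in the 7 lists (log2, dexamethasone minus vehicle), 1 point per gene, with called genes coloured, the list median as a bar and up to 2 called genes of largest change labelled. Rhob at 1.92 and Klf2 at 1.48 stand far to the right, while the list medians lie between -0.07 and 0.05.

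Upstream of MRTF, in the actin and RhoA arm, 3 of 17 rose and 2 fell. This was 29.4% called, with 12.0% for all tested genes and 19.5% for those above the control median. Rhob, a small GTPase related to RhoA, was at 8.23 to 8.94 on vehicle arrays and at 10.33 to 10.65 on dexamethasone arrays. It rose by 1.92 (SE 0.12, limma adjusted p = 1.58e-05), a 3.78-fold change in 6 of 6 cultures. Rhoc rose by 0.43 and Limk2, a kinase that inactivates cofilin, by 0.45. The formins Diaph3 and Diaph1, which nucleate actin filaments, fell by 0.39 and 0.23. In the fit over all probe sets the calls of Rhoc and Diaph1 were lost, and that of Rhoc also without cultures 2 and 3. Rhoa itself was 15.03 ± 0.06 and 15.03 ± 0.05 (adjusted p = 0.979).

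In the MAP kinase arm, 3 of 14 rose and none fell. This was 21.4% called, with 12.0% for all tested genes and 19.5% for those above the control median. Without culture 2 or 3 the rises numbered 1, as in the fit over all probe sets, and quantile normalization gave 2 rises and 2 falls. Map2k3, an activator of p38, rose from 11.69 ± 0.10 to 12.46 ± 0.12 (0.77, limma adjusted p = 7.9e-05), and the scaffold Ksr1 and the kinase Araf rose by 0.26 and 0.20, calls lost under 5 and 9 of 18 other settings. In the calcium and class II deacetylase kinase arm, 1 of 17 rose and 3 fell, 23.5% called beside the same 12.0% and 19.5%. The falls numbered 1 without culture 1, 3, 4, 5 or 6 and 1 with array centring, 0 with all probe sets and 5 with quantile normalization. Mark2 rose by 0.39, and Camk1, the calcineurin subunit Ppp3r1 and Sik3 fell by 0.27, 0.18 and 0.18, calls lost under 2, 8 and 10 of 18 other settings. Of 10 coactivators and corepressors tested 1 passed, 10.0% against 12.0% of all tested genes. The acetyltransferase Ep300 rose by 0.17 (adjusted p = 0.048), a call lost under 10 of 18 other settings. Those settings included leaving out any 1 of cultures 1 to 5. The class II deacetylases Hdac7 and Hdac9 were under the control median on every array, and Myocd, the muscle coactivator of SRF, was too dim to enter the test.

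The cultures carried the markers of megakaryocytes. All 10 measured markers, led by Pf4 and Ppbp, were above the control median on every array, with mean levels over the list of 16.38 to 16.61 in vehicle and 16.35 to 16.62 in dexamethasone. Of the 10, Gp9 and Clec1b rose by 0.44 and 0.24 and Tubb1 fell by 1.14. That is 30.0% called, against 12.0% of all tested genes and 19.5% of those above the control median. Neutrophil markers were present, and 4 of 9 tested fell (S100a9 by 0.77, S100a8, Camp and Ltf, whose changes were -0.51, -0.49 and -0.46). This was 44.4% called, against 12.0% of all tested genes. Ngp, Retnlg, Ly6g, Mpo and Elane did not pass, with changes of 0.00, 0.12, -0.15, -0.16 and -0.12. Ltf was above the control median on 2 vehicle arrays and 0 dexamethasone arrays. The mean level of the list was 6.70 to 7.66 in vehicle and 6.20 to 7.36 in dexamethasone. S100a8 missed the threshold under 10 and S100a9 under 7 of 18 other settings, and 3 of the 10 markers were under the control median on every array. S100a9 was lowest in culture 2 (10.82 in vehicle, 8.96 in dexamethasone). The part of these markers in the falls of Srf, Mef2c and Elk1 was not tested. Of monocyte and macrophage markers 1 of 9 fell, Ccr2 by 0.42, or 11.1% called, near the 12.0% of all tested genes. Ccr2 was above the control median on 6 vehicle arrays and 0 dexamethasone arrays. Lyz2 (17.46 ± 0.10 and 17.52 ± 0.06) and Cd68 did not pass, and Csf1r was among 4 under the control median on every array. Mean levels of that list were 7.05 to 7.17 in vehicle and 6.87 to 7.21 in dexamethasone. Of mast cell and basophil markers Cpa3 rose by 0.64 and Mcpt8 fell by 0.28 among 6 tested. These calls were 33.3% of the tested markers, against 12.0% of all tested genes. Mcpt8 missed the threshold under 11 of 18 other settings and was above the control median on 2 of 6 dexamethasone arrays. Of the 7 measured, 4 were under the control median on every array. Of 7 B lymphocyte markers, cells that also use Mef2c, 5 were under the control median on every array and none passed, with Cd79b and Vpreb1 the brightest at 6.76 ± 0.08 and 6.64 ± 0.09 in vehicle. Of 9 stromal and smooth muscle markers 8 were under it, and of 5 erythroid markers Klf1, Slc4a1 and Ermap were, while Epor was the brightest at 8.70 ± 0.25 in vehicle and 8.96 ± 0.11 in dexamethasone, ahead of Alas2.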

How the data were processed

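RNA from 6 vehicle and 6 dexamethasone portions of split cultures (50 ng each) was measured on 1-colour biotin arrays of 72688 probe sets. The deposited values are log2 signals made by the authors; the sources used here do not state how these were summarised and normalised. The values were used as deposited (array medians 5.57 to 5.67, negative control medians 6.15 to 6.39), and the number of arrays limits the precision. Probe sets with 1 distinct symbol named 30142 genes, each read from its brightest probe set over the 12 arrays, with symbols updated for 827. Genes above the 25th percentile of their array on at least 6 arrays were tested with limma 3.58.1 in R 4.3.3 (lmFit, eBayes, culture as block) and Benjamini-Hochberg adjustment over 24265 genes. The code was tested on simulated data.

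The block follows from the treatment protocol in the labels, which divides each culture. Deviations of same-numbered arrays from their group means correlated at 0.049 to 0.247, over 0.1 in 4 of 6 pairs. For the vehicle arrays of cultures 2 and 3 the best match was a dexamethasone array of another number. The mean of -0.032 for other pairs is no separate comparison, since removing group means ties it to the same-numbered values. The labels call the arrays biological replicates; if cultures share mice, p-values measure only the spread between cultures. Single genes and differences within families were also tested by exact sign-flip permutation over cultures, two-sided, in Python 3.11.15.

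The genes and lists were chosen with earlier results of these data known. The text names all 9 genes, up to 4 called genes of largest change per pathway list, called and brightest markers, and the 3 most similar genes of each called gene. Other list genes were named after their values were seen. Alternatives were other filters, a floor, quantile normalization, centring, all probe sets, the mean of probe sets, another variance model, no block or a random one, and leaving out cultures.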

Additional observations from a re-analysis of the deposited data

Results flagged for a closer look

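The vehicle array of culture 2 had an Elk3 signal of 9.10, apart from the other 5 vehicle arrays at 9.40 to 9.50. Its gap to the nearest array was 0.73 of the group's range, above Dixon's 95% critical value for 6 arrays. It was the one such value among the 9 genes in both groups. The dexamethasone array of the same culture was at 9.11, so the Elk3 change there was 0.02.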

How the results depend on the processing

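Srf and Mef2c kept their calls under all 18 other settings, and no change of the 9 genes turned its sign. Mef2a missed the threshold with all probe sets (0.16, adjusted p = 0.155), centring (0.18, 0.0514), no filter (0.16, 0.0555), quantile normalization (0.13, 0.0679) and without cultures 2 and 3 (0.13, 0.198), which left 0 of the 9 genes called higher in each. Elk1 missed it with all probe sets (-0.21, 0.101) and without cultures 2 and 3 (-0.17, 0.146). Elk3 passed it with filters at the 50th percentile (-0.23, 0.0426) or the negative control median (-0.23, 0.0326), a random block (-0.23, 0.0393) and quantile normalization (-0.29, 0.024; exact sign-flip permutation p = 0.0312). Quantile normalization also passed Mrtfa (-0.15, 0.0364) and Mrtfb (-0.21, 0.0359), giving 6 lower. The causes were not tested. Of the list genes, 8 were higher and 3 lower with all probe sets, 7 lower with centring, 12 higher and 19 lower with quantile normalization, and 7 higher and 6 lower without cultures 2 and 3. That last setting was chosen after seeing the data.

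With 1 culture left out, changes ran from 0.14 to 0.18 for Mef2a, -0.23 to -0.18 for Elk1 and -0.28 to -0.18 for Elk3, with 0 genes higher and 2 to 3 lower, and 11 to 15 list genes higher and 7 to 10 lower. Differences ran from 0.75 to 0.77 (Mef2a minus Mef2c), 0.21 to 0.29 (Mef2a minus Mef2d), -0.55 to -0.47 (Mef2c minus Mef2d), -0.36 to -0.26 (Elk1 minus Elk4) and -0.38 to -0.27 (Elk3 minus Elk4), each at an adjusted p of 0.0875, since 5 cultures cannot go below an exact p of 0.0625. Elk1 minus Elk3 ran from -0.01 to 0.07 and turned its sign. Without the replicate block no call of the 9 genes changed (Srf -0.51, 0.000831; Mef2c -0.60, 1.59e-06; Mef2a 0.16, 0.0413; Elk1 -0.21, 0.0308), and 2452 genes in all were called. Over all settings that number ran from 1269 without cultures 2 and 3, and 1878 without culture 3, to 3427 with the filter at the negative control median, against 2900 as reported.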
